A study of Danio rerio with 16 samples.

Results

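The comparison of regenerating whole fin at 4 against 2 days post-amputation (dpa) rested on 4 whole genome bisulfite sequencing (WGBS) libraries of zebrafish caudal fin, 2 at 4 dpa and 2 at 2 dpa. The genome was divided into 500 bp tiles, the methylation level of a tile was the percentage of methylated calls among the calls of a library in it, and a tile was kept where each of the 4 libraries had at least 10 calls. Of the 2631724 tiles that held a listed CpG, 1613794 (61.3%) were kept, and they held 75.7% of the CpGs. They had a median of 10 listed CpGs, against 4 in the tiles that were not kept.

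All fish of the series carried Tg(sp7:EGFP), a transgene that puts the green fluorescent protein EGFP under the regulatory sequence of sp7, a gene of the osteoblast lineage. Neither time point was further treated, and both groups were regenerating tissue, labelled as blastema, at 4 dpa and at 2 dpa after amputation of the fin. The study describes this whole tissue as blastema mixed with wound epidermis, so a library averages over several cell types, and a change in their proportions and a change within cells cannot be told apart. The other 12 libraries of the series were whole fin at 0 dpa (uninjured) and 1 dpa and cells sorted by EGFP into sp7+ and sp7- populations at 4 and 0 dpa, again 2 libraries each. No annotation was at hand to check the labelled tissue against marker genes. The sources used here do not say how many fish were pooled for a whole fin library, and p-values measure only the spread between these libraries.

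In vertebrates most cytosines in CpG dinucleotides are methylated, outside CpG-rich promoters and active regulatory elements. Maintenance methyltransferase copies the marks onto the new DNA strand after replication, so that the level of a region depends on both replication and upkeep. A fin regrows from the blastema, a mass of proliferating and lineage-restricted cells that forms under the wound epidermis and then differentiates into new bone and connective tissue.

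The libraries held 138782937 and 129295312 CpG calls at 4 dpa, against 133964125 and 117991918 at 2 dpa. No molecular identifiers are described in the sources used here, so intervals cover counting error only. They also treat calls as independent, although CpGs on the same read give calls together, so they can be too narrow. The 95% interval of a library level from counting alone was at most 0.00742 points on either side. The median kept tile had 58 and 52 calls in the libraries of 4 dpa, against 56 and 47 in those of 2 dpa. At the edge of the minimum, 43847 kept tiles whose shallowest library had 10 calls differed by a mean of -2.23 points, and 45855 tiles left out at 9 calls differed by -2.28 points (4 minus 2 dpa).

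The genome-wide methylation level of the regenerate was lower in both libraries of 4 dpa, by a small amount. The level was 76.1% and 76.7% at 4 dpa, against 77.9% and 78.4% at 2 dpa, which gave 76.4% ± 0.442 and 78.2% ± 0.331 (SD, n = 2 each). The difference of -1.78 points exceeded both SDs, and the libraries of the groups did not overlap. With 2 libraries against 2, the two-sided exact permutation p was 0.333, the smallest the design allows. Averaged over kept tiles, so that each tile counted once, the level was 75.8% and 75.9% at 4 dpa, against 77.7% in both libraries of 2 dpa, a difference of -1.91 points. Replicates were closer on this measure, at SDs of 0.0782 and 0.0272 points at 4 and 2 dpa.

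The fall was spread over very many tiles and was small in most. The median tile differed by -1.48 points, with quartiles of -5.71 and 2.04 points, and 61.2% of tiles were lower at 4 dpa. Most tiles, 84.1%, stayed within 10 points. Both libraries of 4 dpa lay below both of 2 dpa in 394576 tiles (24.5% of all kept tiles) and above both in 178342 tiles (11.1%). A difference of more than 25 points occurred as a fall in 9535 tiles and as a rise in 2981. Single libraries of the same group, however, already differed widely at this depth. After centring on the median, 2.77% of tiles differed by more than 25 points between the replicates of 4 dpa and 2.71% between those of 2 dpa. Between single libraries of 4 and 2 dpa the share was 2.60% to 3.33%, a range that included both replicate values.

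How the fall depended on the starting level changed with the libraries that set that level. With tiles binned by their mean at 2 dpa, the mean change was 0.57 points in tiles under 10%, -1.46 points in tiles of 70% to 80% and -3.29 points in tiles of 90% or more, so that highly methylated tiles were lower and tiles under 20% higher at 4 dpa. The 2 dpa libraries enter both axes of that comparison, which therefore share their counting error. With tiles binned by the 1 dpa libraries, which the change did not use, the pattern turned. The change was 0.03 points under 10%, -2.13 points at 40% to 50%, -2.93 points at 60% to 70%, -2.06 points at 80% to 90% and -1.17 points at 90% or more. Setting the level by one library of 2 dpa and the change by the other gave -1.21 and -1.08 points at 90% or more, and -2.89 and -3.11 points at 60% to 70%.

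**Figure D1:**
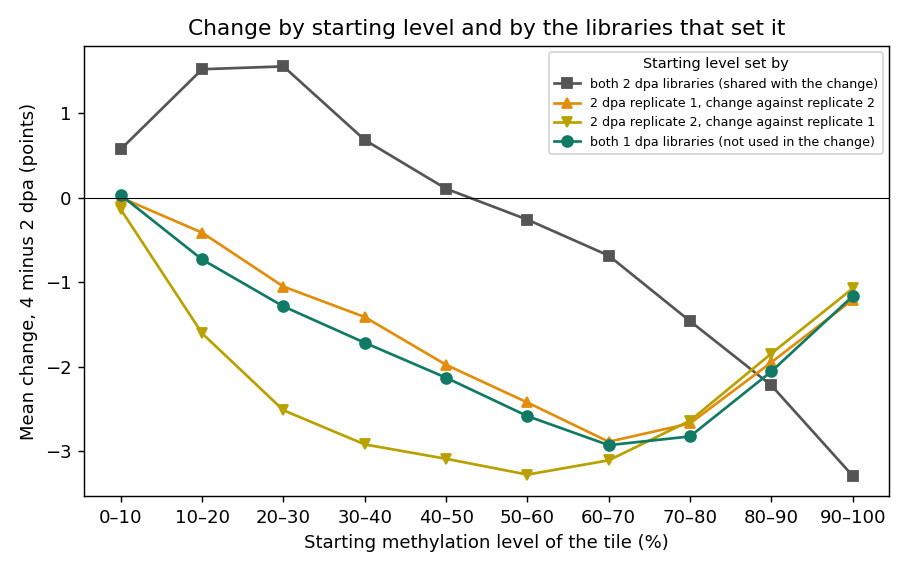
The mean change of 500 bp tiles (4 minus 2 dpa, in percentage points) is plotted against the starting methylation level in bins of 10 points, with a line for each way to set the starting level. When the 2 dpa libraries set it, the line descends to -3.29 points in the highest bin, whereas with the 1 dpa libraries the fall is deepest at 60% to 70%, at -2.93 points, and is -1.17 points in the highest bin.

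Binned by 1 dpa, the 464724 tiles between 30% and 80% averaged 64.6% ± 0.0620 at 4 dpa (SD, n = 2), against 67.3% ± 0.291 at 2 dpa (SD, n = 2), a difference of -2.72 points. The 1040953 tiles at 80% or more averaged 85.5% ± 0.170 at 4 dpa (SD, n = 2), against 87.1% ± 0.124 at 2 dpa (SD, n = 2), a difference of -1.66 points. In neither class did the libraries of the groups overlap. The difference was thus larger in intermediate than in nearly fully methylated tiles. Below 30% at 1 dpa the libraries overlapped, and below 20% the mean difference was -0.14 points.

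In unmethylated tiles no difference beyond the replicate spread was detected. The 29255 tiles under 5% in every library of 0 and 1 dpa averaged 1.16% and 1.12% at 4 dpa, against 1.14% and 1.13% at 2 dpa, and the libraries overlapped. With at least 4324350 calls per library, the difference in mean level was 0.00542 points. Calls in such tiles include cytosines that bisulfite failed to convert. The conversion rates of the libraries, which the study measured on added lambda DNA, are not given in the sources used here.

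In highly methylated tiles the fall was graded by the number of CpGs and was largest in CpG-poor tiles. Among tiles at 80% or more at 1 dpa, those with 1 or 2 listed CpGs had a level of 82.5% and 83.0% at 4 dpa, against 85.1% and 85.2% at 2 dpa, a difference of -2.42 points. With 7 to 9 CpGs the level was 84.4% and 84.6% at 4 dpa, against 86.3% and 86.5% at 2 dpa, a difference of -1.89 points. With 25 or more it was 89.3% and 89.5% at 4 dpa, against 90.01% and 90.2% at 2 dpa, a difference of -0.72 points. The difference shrank from each of the 7 classes of CpG number to the next, and the libraries of the groups did not overlap in any. With the level set by 2 dpa, which shares libraries with the change, the classes ran from -5.05 to -0.99 points.

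**Figure D2:**
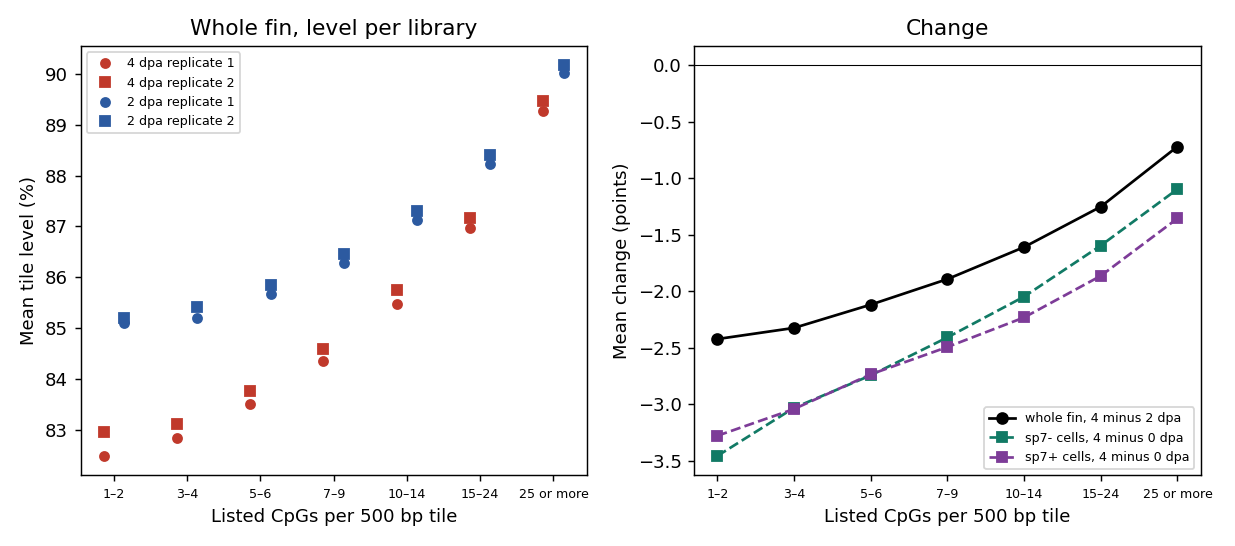
Left, the mean methylation level (%) of tiles at 80% or more at 1 dpa is plotted for each library of 4 and 2 dpa by the number of listed CpGs in the tile. Right, the change in points is shown for whole fin (4 minus 2 dpa) and for sp7- and sp7+ cells (4 minus 0 dpa). All 3 lines climb toward 0 as CpGs per tile increase, in whole fin from -2.42 to -0.72 points.

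CpG-poor tiles also hold fewer calls, with a median of 17 per library at 1 or 2 CpGs and 187 at 25 or more, so the contrast was taken again among tiles with alike numbers of calls, in ranges chosen after the data were seen. From the same tiles at 80% or more at 1 dpa, those of 1 to 4 CpGs changed by -2.32 points at a mean of 20 to 30 calls per library, by -2.34 points at 30 to 40, by -2.44 points at 40 to 60 and by -2.34 points at 60 to 80. Tiles of 10 or more CpGs changed by -1.29, -1.35, -1.38 and -1.44 points in the same ranges. The difference was thus larger in CpG-poor tiles at each of these 4 depths. The starting level was not matched, and at 20 to 30 calls CpG-poor tiles were at 85.4% at 2 dpa, against 86.8% in CpG-rich tiles. In narrower bins, tiles of 80% to 90% at 1 dpa changed by -2.94 points with 1 or 2 CpGs and -0.96 points with 25 or more. In tiles of 90% or more the changes were -1.76 and -0.58 points. Within these bins neither the level nor the number of calls was matched. At 80% to 90%, tiles of 1 or 2 CpGs were at 82.1% in both libraries of 2 dpa, against 86.5% and 86.7% with 25 or more. At 90% or more they were at 88.9% and 89.2%, against 92.0% and 92.1%.

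The order by CpG number was seen at high starting levels and not at low ones. In tiles of 50% to 60% at 1 dpa the change was -3.79 points with 1 or 2 CpGs and -2.28 points with 15 to 24, and in tiles of 70% to 80% it was -3.65 and -2.20 points. In tiles of 20% to 30% it was -1.47 points with 3 or 4 CpGs, -1.18 points with 7 to 9 and -1.64 points with 15 to 24, so the fall did not shrink with CpG number there. Of 70 combinations of a starting level bin at 1 dpa and a CpG number, 61 held at least 500 tiles. The libraries of 4 dpa lay below those of 2 dpa without overlap in 45 of the 61, and above them in 0. The deepest fall, -3.90 points, was in tiles of 1 or 2 CpGs at 60% to 70%.

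Sorted cells, which took no part in this contrast, showed a gradient of the same direction between 4 and 0 dpa. In the same tiles with 1 or 2 CpGs, sp7- cells were at 84.3% and 82.6% at 4 dpa, against 86.9% in both libraries of 0 dpa, a difference of -3.46 points. In those with 25 or more they were at 90.1% and 89.3% at 4 dpa, against 90.9% and 90.7% at 0 dpa, a difference of -1.09 points. In sp7+ cells the differences were -3.28 points with 1 or 2 CpGs and -1.35 points with 25 or more, and at no CpG number did the libraries of 4 and 0 dpa overlap in either population. These cells were compared with uninjured fin and not with 2 dpa, so the sizes are not directly comparable.

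The fall was seen on each chromosome. All 25 chromosomes were lower at 4 dpa in both libraries (100% of those tested, without overlap). Chromosome 14 was at 75.3% and 75.9% at 4 dpa, against 77.4% and 77.9% at 2 dpa, and chromosome 7 was at 74.9% and 75.2% at 4 dpa, against 76.6% and 77.5% at 2 dpa. These were the largest changes, at -2.00 and -1.99 points. The smallest were on chromosome 12, at -1.40 points, with 77.7% and 78.0% at 4 dpa, against 79.0% and 79.5% at 2 dpa, and on chromosome 18, at -1.45 points, with 77.7% and 78.6% at 4 dpa, against 79.4% and 79.7% at 2 dpa. Relative to the level of the whole library, limma with Benjamini-Hochberg adjustment called 0 of the 25 chromosomes (0%). The smallest adjusted p was 0.444, and 2 chromosomes, 4 and 12, had an unadjusted p under 0.05.

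**Figure D3:**
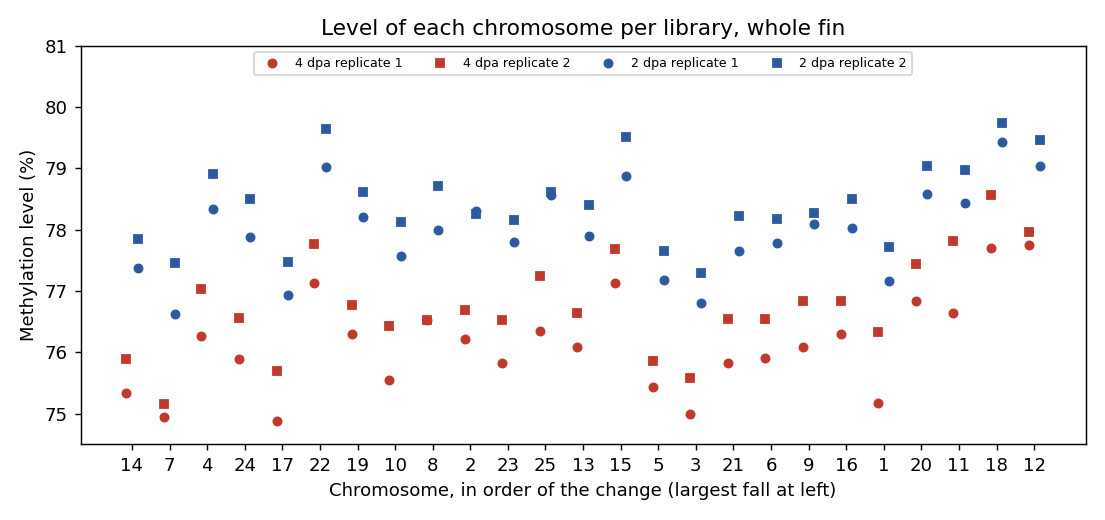
The methylation level (%) of each of the 25 chromosomes is plotted for the 2 libraries of 4 dpa and the 2 of 2 dpa, with chromosomes in order of the change. On each chromosome both libraries of 4 dpa lie below both of 2 dpa, and the change ranges from -2.00 to -1.40 points.

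Windows of 100 kb asked whether the fall was gathered in domains. Of 13349 windows with at least 1000 calls in each whole fin library, 96.6% had a lower level at 4 dpa, and in 77.3% both libraries of 4 dpa lay below both of 2 dpa. The median window changed by -1.82 points, and the first and last percentiles were -4.20 and 0.55 points. In a limma fit over all 8 whole fin libraries, 4248 windows (31.8%) were lower and 3 (0.0225%) higher at an adjusted p under 0.05. The count of called windows rested on single libraries, since leaving out replicate 1 of 4 dpa or either library of 2 dpa gave 0, and leaving out replicate 2 of 4 dpa gave 2330. Without a library of 1 dpa it was 2317. With the level of each library subtracted, limma called 0 windows in either direction (0%), the smallest adjusted p was 0.462, and 1136 windows (8.51%) had an unadjusted p under 0.05, of which 625 were lower and 511 higher. Windows of 10 kb and 1 Mb also gave 0 relative to the library. At 1 Mb, without that subtraction, 1217 of 1353 windows were lower and 0 higher. Without it every window carries the level difference between whole libraries, so windows called at 100 kb or 1 Mb are not independent evidence. The 1 Mb fit was not repeated with libraries left out. The first and last percentiles of the change relative to the library were -2.42 and 2.33 points at 100 kb. In simulated 100 kb windows, all given the same spread, limma recovered 16% of changes of 2 points and 98% of those of 4 points. Real windows need not share 1 spread. Relative to the library, chr5:6000000-6099999 changed by 4.95 points and chr20:29500000-29599999 by -4.57 points. Neither was called (adjusted p from limma 0.462 for each). Departures of single windows, including some above 4 points, could thus be missed.

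**Figure D4:**
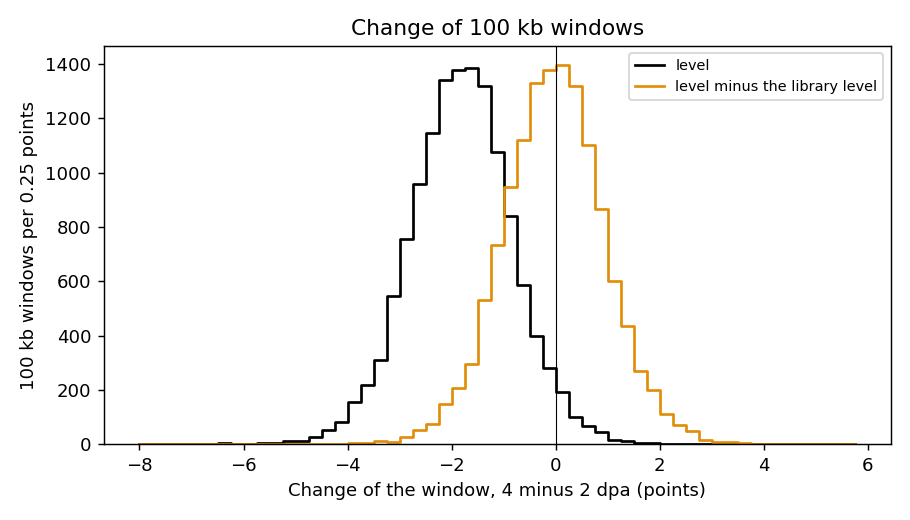
The number of 100 kb windows is plotted by their change between 4 and 2 dpa in points, before and after the level of each library is subtracted. Of the windows, 96.6% sit left of 0, around a median of -1.82 points, and the subtraction moves it to a median of -0.04 points without splitting it.

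The 3 windows called higher, which are named because they are so few, lay on chromosomes 5, 7 and 4 (GRCz10, positions as deposited). Some calls at this threshold can be false, and whether these are was not tested. None of the 3 was called relative to the library level. There the adjusted p from limma was 0.462 on chromosome 5 and 0.468 on chromosome 7. The window chr5:6000000-6099999 was at 76.2% and 76.1% at 4 dpa, against 72.8% and 73.1% at 2 dpa (adjusted p from limma 0.0253). The window chr7:2500000-2599999 was at 79.1% and 80.9% at 4 dpa, against 78.2% and 76.4% at 2 dpa (adjusted p from limma 0.0448). The window chr4:63700000-63799999 was at 81.1% and 79.3% at 4 dpa, against 77.9% and 77.8% at 2 dpa (adjusted p from limma 0.0399). In none of the 3 did the whole fin groups overlap, and sorted cells did not rise in any of them without overlap. The window on chromosome 5 was lower in sp7+ cells, with 73.9% and 73.6% at 4 dpa, against 78.4% and 74.8% at 0 dpa, and in sp7- cells, with 75.7% and 74.6% at 4 dpa, against 76.6% and 76.0% at 0 dpa. The window on chromosome 7 was lower in sp7- cells, with 78.2% and 77.7% at 4 dpa, against 80.1% and 79.6% at 0 dpa, and the other sorted groups overlapped on chromosomes 7 and 4.

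Windows with fewer CpGs fell more, as tiles with fewer CpGs did, but the starting level of windows was not matched. In 5 equal classes of windows by CpG number, those with the fewest CpGs, up to 1498, averaged 73.1% ± 0.347 at 4 dpa (SD, n = 2), against 75.2% ± 0.223 at 2 dpa (SD, n = 2), and 43.8% of them were called lower. Those with the most, 2064 or more, averaged 79.6% ± 0.379 at 4 dpa (SD, n = 2), against 81.1% ± 0.330 at 2 dpa (SD, n = 2), and 20.2% were called lower. The mean change was -2.12 points in windows with the fewest CpGs and -1.52 points in those with the most, with the 3 classes between them in order. The level at 2 dpa rose over the 5 classes in the same order, so CpG number and starting level cannot be told apart here. Across windows, which share their libraries and are not independent replicates, the number of CpGs and the change had a Pearson correlation of 0.21.

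The difference was slightly larger far from chromosome ends. Within 1 Mb of an end, the mean tile was at 75.3% and 75.5% at 4 dpa, against 77.0% in both libraries of 2 dpa, a difference of -1.62 points. Further than 10 Mb from both ends it was at 74.96% and 75.1% at 4 dpa, against 77.1% and 77.0% at 2 dpa, a difference of -2.03 points. Tiles near the ends are also richer in CpGs, with a median of 11 against 9. Among tiles of 7 to 9 CpGs the differences were -1.85 points within 1 Mb and -2.21 points beyond 10 Mb, so a gap between these classes was seen there too.

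Single tiles were tested with limma on the arcsine square root of the level, weighted by calls, over the 1553447 tiles with 10 or more calls in all 8 whole fin libraries. With an adjusted p below 0.05 and more than 25 points between the groups, 47 tiles were called (0.00303%), 41 lower and 6 higher. With no minimum size 138 were called, 128 lower (0.00824%) and 10 higher (0.000644%). At an unadjusted p under 0.05 there were 113424 tiles (7.30%), of which 90977 were lower at 4 dpa. The 47 depended on the weights. Replicate libraries of 4 dpa differed by 1.06 times the counting variance in tiles of 10 to 20 calls and by 2.48 times in tiles of 160 to 400 calls, which weights by calls do not allow for. Weights that do were set from tiles of these levels, used for all tiles and added after this was seen. They left 1 tile, and edgeR's quasi-likelihood test on the counts called 11. Leaving out 1 library of 4 dpa gave 9 tiles for replicate 1 and 42 for replicate 2, and leaving out 1 of 2 dpa gave 9 for replicate 1 and 1 for replicate 2.

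The 128 tiles called lower were deeply read, with a median of 210 calls per library against 55 in all tested tiles, and none of them stayed called with the weights that allow for spread beyond counting (0 of 128). Their levels elsewhere in the series are a description. They were at 54.0% and 55.0% at 4 dpa, against 77.2% and 77.7% at 2 dpa, which is what chose them. At 1 dpa they were at 75.4% and 74.7%, whereas in uninjured fin at 0 dpa they were at 66.6% and 66.1%. The libraries of 1 dpa were thus higher than those of 0 dpa. Both time points had a part in the choice, through the variance of the fit and the minimum of calls. Their levels were not part of the difference tested. Over all calls the level was also higher at 1 dpa, with 79.0% and 79.2%, against 77.4% and 77.1% at 0 dpa.

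The same tiles were also lower in sorted cells at 4 dpa. In sp7+ cells they averaged 61.9% ± 0.200 at 4 dpa (SD, n = 2), against 71.3% ± 1.43 at 0 dpa (SD, n = 2), a difference of -9.39 points. In 95 of the 128 (74.2%) both sp7+ libraries of 4 dpa lay below both of 0 dpa. The share was 34.2% among tested tiles with 10 or more calls in all 16 libraries. In sp7- cells they averaged 55.4% ± 5.80 at 4 dpa (SD, n = 2), against 62.0% ± 0.791 at 0 dpa (SD, n = 2). Both libraries of 4 dpa lay below both of 0 dpa in 59 of the 128 (46.1%), against 28.8% of the same tested tiles. Tested tiles with these calls and the same starting levels changed by -1.90 points in sp7+ and -1.62 points in sp7- cells. The difference in depth between called and other tiles bears on such shares, and its part in them was not tested.

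The 10 tiles called higher were at 57.3% and 52.1% at 4 dpa, against 24.4% and 18.7% at 2 dpa. At 0 dpa they were at 33.0% and 31.2% and at 1 dpa at 32.6% and 30.03%. In sp7+ cells they were at 34.6% and 39.97% at 4 dpa, against 28.9% and 32.5% at 0 dpa. In 7 of the 10 the groups did not overlap and 4 dpa was higher. The share was 9.82% among tested tiles with 10 or more calls in all 16 libraries. With the added weights 1 of the 10 stayed called. In sp7- cells they were at 40.7% and 52.8% at 4 dpa, against 39.9% and 42.9% at 0 dpa. Without overlap, 6 of the 10 were higher at 4 dpa there and 1 was lower, against 10.7% and 28.8% of the same tested tiles.

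**Figure D5:**
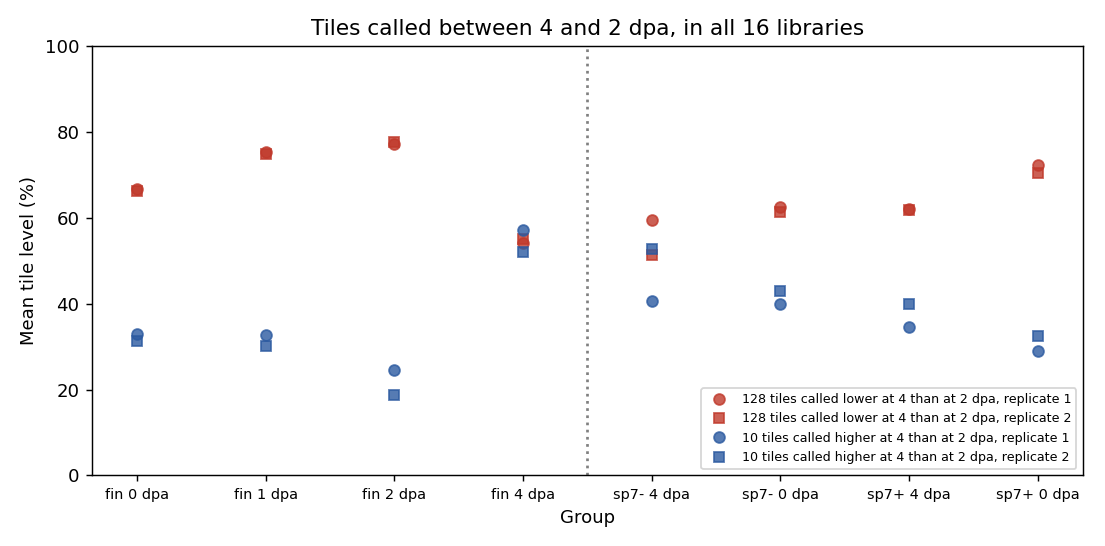
The mean methylation level (%) of the 128 tiles called lower and the 10 called higher between 4 and 2 dpa is plotted for each of the 16 libraries. The tiles called lower stand at 54.0% and 55.0% in whole fin at 4 dpa, below the 2 dpa libraries for which they were chosen, and in sp7+ cells they are lower at 4 than at 0 dpa.

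Tiles that departed from the general fall were also listed without a test, as those more than 25 points from the median change of their 2 dpa level bin with no overlap between the groups. There were 7152 such tiles below the median (0.443%) and 2960 above it (0.183%). The choice used the change itself, so these counts describe it only. The tiles were poor in CpGs, with a median of 6 in both directions against 10 in all kept tiles, and shallow, with medians of 21 and 19 calls per library against 53. They seldom lay side by side. The next tile was of the same kind for 1.25% of those below and 0.409% of those above. Both shares exceeded those among all kept tiles, 0.443% and 0.183%, which were not matched in depth or CpG number. Of those with 5 or more CpGs, 20 or more calls in each library and no excess depth, 1854 lay below and 554 above, and joining neighbours gave 7 stretches of 2 tiles below and 0 above. The departures of adjacent tiles from their bin median had a correlation of 0.06, against 0.02 for the differences between replicates of either group. These values are not like for like, since replicate differences are between single libraries and the change is between means of 2. Over tiles the change had an SD of 7.33 points, against 9.99 and 9.92 points for the replicates of 4 and 2 dpa.

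In libraries outside the contrast the departures were mostly smaller. The 5980 tiles below the median with calls in all 16 libraries were at 45.5% and 43.8% at 4 dpa, against 74.4% and 75.9% at 2 dpa. They were at 61.3% and 60.1% at 0 dpa and at 66.4% and 66.1% at 1 dpa, between those values. In sp7+ cells they changed by -3.37 points between 4 and 0 dpa and in sp7- cells by -2.91 points, where all tiles of the same bins changed by -1.93 and -1.69 points. Yet fewer of them were lower at 4 dpa than among all tiles, with 65.5% against 68.7% in sp7+ cells and 61.4% against 65.4% in sp7- cells. All tiles, here those with calls in all 16 libraries, were not matched to them in level or depth for these shares. The 2319 tiles above the median changed by 1.09 points in sp7+ and 0.98 points in sp7- cells, where all tiles of the same bins changed by 0.09 and 0.76 points. Of these tiles, 48.5% were lower at 4 dpa in sp7+ cells and 48.9% in sp7- cells.

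The tiles with the widest gap between the groups show how far this went (GRCz10, 1 tile each, positions as deposited). Of these 10 tiles limma weighted by calls called 3, the other 7 had adjusted p from limma of 0.0514 to 0.217, and with the added weights 1 was called. In each of those below the median, both whole fin libraries of 0 dpa lay below both of 2 dpa. In those above the median they lay above both of 2 dpa, except in chr5:62790500-62790999, where the libraries overlapped. The tiles were chosen for a wide gap from the 2 dpa libraries. This order is thus partly set by the choice and is no test of 2 dpa against uninjured fin. The tile chr3:46165500-46165999 held 6 CpGs and was at 18.2% and 27.3% at 4 dpa, against 75% and 78.3% at 2 dpa. It had 20 to 23 calls per library, and the 95% Wilson intervals for counting error ran from 7.31% to 38.5% and from 13.2% to 48.2% at 4 dpa, against 53.1% to 88.8% and 58.1% to 90.3% at 2 dpa. Counting intervals of the groups did not overlap there, but the adjusted p from limma was 0.144, and sp7+ cells were near 50% in each library of both times, from 48.4% to 51.5%. The sp7- libraries of 4 and 0 dpa overlapped. Whole fin was at 46.7% and 32.1% in this tile at 0 dpa and at 28.6% and 54.2% at 1 dpa.

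The tile chr23:44585000-44585499, with 9 CpGs, was at 26.9% and 27.7% at 4 dpa, against 74.2% and 77.3% at 2 dpa. It was at 26.7% and 23.3% in sp7+ cells at 4 dpa, against 15.9% and 12% at 0 dpa, so it moved the other way there. In sp7- cells the libraries of 4 and 0 dpa overlapped. The tile chr7:20138000-20138499, with 12 CpGs and 49 to 82 calls, was at 30.6% and 28.1% at 4 dpa, against 74.2% and 78.0% at 2 dpa. It was called by limma weighted by calls (adjusted p 0.0154) and not with the added weights (adjusted p 0.116). It too moved the other way in sp7+ cells, with 61.3% and 54.3% at 4 dpa, against 50.0% and 34.6% at 0 dpa. So it did in sp7- cells, with 59.3% and 59.7% at 4 dpa, against 47.1% and 32.1% at 0 dpa.

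The tile chr10:28919500-28919999, with 5 CpGs, was at 50.0% and 47.1% at 4 dpa, against 91.3% and 92.6% at 2 dpa. In sp7+ cells it was at 75.7% and 68.3% at 4 dpa, against 93.4% and 90% at 0 dpa, without overlap. The tile chr22:34125000-34125499, with 9 CpGs, was at 38.2% in both libraries of 4 dpa, against 80.6% and 78.1% at 2 dpa. In sp7+ cells it was at 66.9% and 69.6% at 4 dpa, against 71.7% and 79.4% at 0 dpa. Both tiles were lower at 4 dpa in whole fin and in sp7+ cells, whereas the sp7- libraries of 4 and 0 dpa overlapped. On chromosome 10 sp7- cells were at 71.0% and 40.7% at 4 dpa, against 74.1% and 65.9% at 0 dpa. On chromosome 22 they were at 66.7% and 53.1% at 4 dpa, against 62.5% and 67.4% at 0 dpa.

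Of the 7 stretches of 2 tiles, that with the widest gap, named after its values were seen, was chr14:6480500-6481499, with 21 CpGs and 84 to 144 calls. It was at 28.8% and 27.1% at 4 dpa, against 56.1% and 59.5% at 2 dpa. In sp7+ cells it was at 30.1% and 27.3% at 4 dpa, against 41.9% and 36.6% at 0 dpa, and in sp7- cells at 47.3% and 40.7% at 4 dpa, against 30.2% and 31.8% at 0 dpa. The sorted populations moved in opposite directions there, without overlap in either.

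Among tiles above the median, chr12:47091000-47091499 held 51 CpGs and was at 70.1% and 77.6% at 4 dpa, against 14.6% and 0% at 2 dpa. There 0 of 22 calls allows a level of up to 13.6% by a limit of 3 calls and up to 14.9% by the Wilson interval. Both limits treat the 22 calls as independent, although a read over a tile of 51 CpGs can give several, so they can be too low. This tile was the one left under the added weights (adjusted p from limma 0.0208). In sorted cells, however, replicate 1 of each population and time lay between 10.3% and 21.2% and replicate 2 between 39.2% and 62.5%, a difference between replicates of 18.0 to 49.6 points. The level of this tile thus varied between replicates of the same cells and time.

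The tile chr5:62790500-62790999, with 38 CpGs, was at 86.8% and 81.8% at 4 dpa, against 35.9% and 42.3% at 2 dpa. It was lower in sp7+ cells, with 62.0% and 54.8% at 4 dpa, against 72.0% and 63.1% at 0 dpa. The tile chr4:22725000-22725499, with 9 CpGs, was at 60.5% and 54.5% at 4 dpa, against 14.9% and 16.3% at 2 dpa (adjusted p from limma 0.0374). It was higher in sp7+ cells, with 41.8% and 25% at 4 dpa, against 23.8% and 20.3% at 0 dpa. In sp7- cells the libraries of 4 and 0 dpa overlapped in both of these tiles.

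The tile chr6:60179500-60179999, with 25 CpGs, was at 79.2% and 75.4% at 4 dpa, against 38.6% and 31.0% at 2 dpa. In sp7+ cells it was at 81.6% and 65.3% at 4 dpa, against 51.9% and 51.5% at 0 dpa. The tile chr23:13635500-13635999, with 14 CpGs, was at 65.7% and 61.4% at 4 dpa, against 26.1% and 20% at 2 dpa. In sp7+ cells it was at 39.6% and 42.7% at 4 dpa, against 20% and 33.1% at 0 dpa. Both were higher at 4 dpa in sp7+ cells as in whole fin, without overlap. The tile on chromosome 23 was also higher in sp7- cells, with 58.0% and 59.3% at 4 dpa, against 43.9% and 45.5% at 0 dpa. On chromosome 6 the sp7- libraries of 4 and 0 dpa overlapped. No annotation of GRCz10 was used here, so none of these tiles is assigned to a gene.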

How the data were processed

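Each library came from DNA treated with bisulfite, which turns unmethylated cytosines into bases read as thymine. Per the study's methods, the authors trimmed reads with Trim Galore 0.4.1, mapped them with Bismark 0.16.1 and Bowtie2 to a copy of GRCz10 edited to the strain's variants, discarded duplicate reads and dropped CpGs that a variant destroys. The deposited values were counts of reads and of methylated reads at the same 23997221 CpGs in each library, both strands joined, with no normalization. Whether positions count from 0 or 1 was not settled.

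Counts were summed per 500 bp tile, per window and per chromosome with numpy 2.4.6 under Python 3.11.15. The level of a group was the mean of its 2 libraries, and the spread is given as SD. Least squares fits held 1 mean per time point over the 8 whole fin libraries, with variances shrunk by limma 3.58.1 under R 4.3.3 and p-values adjusted by Benjamini-Hochberg over all tiles, windows or chromosomes. DSS, the caller of the study, was not installed. The fits and edgeR 4.0.16 were tested on simulated data. Alternatives were tile and window size, minimum calls, transformation, weights, libraries left out and a replicate block. Named tiles had 5 or more CpGs, 20 or more calls in each library and at most 3 times the median depth, and were the 5 with the widest gap between groups in each direction. No window was named by rule, as 0 were called relative to the library. The comparisons and tile classes were chosen with earlier results of these data known. No annotation of GRCz10 was used, so promoters and genes were not compared.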

Additional observations from a re-analysis of the deposited data

How the results depend on the processing

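The lower level at 4 dpa kept its direction in each alternative run, and the tile counts and the dependence on starting level did not keep their size. The genome-wide difference of -1.78 points was -1.74 points over CpGs with 5 or more calls and -2.09 to -1.46 points with single libraries left out. The median tile difference was -1.67 to -1.22 points with single libraries left out, and other tile sizes and call minimums moved it by less than the replicate SD. Setting the starting level by 1 dpa gave -1.66 points in tiles at 80% or more and turned the sign in tiles under 20%, to -0.14 points. Setting it by the other 2 dpa library gave -1.55 and -0.28 points. The difference between CpG-poor and CpG-rich tiles at 80% or more, -2.76 points by 2 dpa levels, was -0.96 points by 1 dpa levels. With minimums of 5 and 20 calls it was -3.73 and -2.04 points, the change at 80% or more was -3.11 and -2.26 points, and that under 20% was 1.29 and 0.43 points. With single libraries left out these 3 values ran from -4.35 to -2.72, from -3.85 to -2.55 and from 0.66 to 2.37 points.

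Tiles beyond the median of their bin numbered 17824 lower and 8519 higher at 5 calls, 2011 and 694 at 20 calls, 13712 and 5131 at 250 bp, 2752 and 1316 at 1000 bp, 50155 and 23573 beyond 15 points, and 260 and 122 beyond 40 points. With single libraries left out they numbered 14841 to 21290 lower and 6823 to 8399 higher. The 47 tiles called became 136 above 10 points, 138 with no minimum, 24 at 5 calls, 4 at 250 bp, 207 on the log2 ratio, 29 with only the 4 libraries fitted, 13 centred on the median tile of each library, 11 with edgeR and 1 with weights for spread beyond counting, an alternative added after the data were seen. Centring gave 9 lower and 4 higher. Leaving out single libraries gave 1 to 61 tiles and 0 to 5284 of the 100 kb windows, which also numbered 0 at 10 kb and 1217 at 1 Mb. A lone library left in a group was assumed to vary like the other groups. Windows and chromosomes relative to the library level stayed at 0 in each alternative run, and leaving out single libraries gave 0 to 0 for both.

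No pairing by replicate number was detected in whole fin windows. The deviations of same-numbered libraries of 4 and 2 dpa had a correlation of 0.02 over windows, and the other pairs of time points gave -0.03 to 0.05. Windows average over many tiles, so pairing in single tiles was not tested. In the tile chr12:47091000-47091499 replicate 2 was above replicate 1 in each sorted population and time. With a replicate block, 51 tiles, 3966 windows, 0 windows relative to the library and 0 chromosomes were called. At 20 to 82 calls in the named tiles, the 95% counting intervals, which treat calls as independent, were 14.9 to 35.7 points wide. With 2 libraries per group the exact permutation test of a single level cannot go below 0.333.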

Other observations

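The shares of tiles that departed from their bin by more than 25 points differed by level. Below the median they were most frequent at a 2 dpa level of 50% to 60%, with 1.03% of 65325 tiles, and above it at 30% to 40%, with 1.83% of 25519 tiles. At a 2 dpa level under 20%, 0 tiles were below, and at 80% or more, 0 were above, as a departure of that size has no room there. The 2 dpa libraries also set both the bin and the departure. The order by level is thus partly set by the choice and is a description only. Binned by 1 dpa levels, 5196 tiles were below and 3879 above the median.

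The tile with the smallest adjusted p from limma weighted by calls (0.00206), named after its values were seen, was chr21:23134500-23134999, with 26 CpGs and 340 to 404 calls. It was at 64.6% and 62.6% at 4 dpa, against 86.8% and 85.6% at 2 dpa. With weights that allow for spread beyond counting its adjusted p from limma was 0.181.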
